A study of Mus musculus with 12 samples.

Results

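Cd69 and 7 genes of sphingosine 1-phosphate (S1P) and lysophosphatidic acid (LPA) signalling were followed by name through macrophages given hepcidin: Cd69, S1pr1, S1pr2, Lpar1, Lpar4, Lpar5, Lpar6 and Sphk1. Of these 8 genes, 7 had a probe set with that symbol among 24675 named probe sets, 1 for each gene, and Lpar5 was not analysed here. The cells were macrophages grown for 7 days from the bone marrow of wild-type mice aged 8 to 10 weeks in medium conditioned by L cells, which secrete M-CSF. The 12 arrays formed 4 groups of 3, hepcidin for 1 h, PBS for 1 h, hepcidin for 3 h and PBS for 3 h. All cells had been moved to DMEM alone for 1 h before the additions, and the strain, sex and number of mice were not given in the sources used here. Hepcidin, the peptide hormone that binds the iron exporter ferroportin, was given at 1 µg/ml by the growth protocol and 10 µg/ml by the treatment protocol, so its dose is not settled. Whether the 3 samples of a group are from separate mice or dishes is not given either, so that p-values cover the spread of these arrays, which may be technical.

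S1P and LPA are signalling lipids that act through families of G protein-coupled receptors. S1P is made from sphingosine by the kinases Sphk1 and Sphk2 and is removed by the lyase Sgpl1 and by lipid phosphatases. Its receptor S1pr1 signals through inhibitory G proteins and guides lymphocytes out of lymphoid tissue. Cd69, a C-type lectin-like membrane protein and an early marker of leukocyte activation, binds S1pr1 in lymphocytes and removes it from the cell surface. Lpar1 belongs to the same receptor family as the S1P receptors, whereas Lpar4 and Lpar6 belong to a family related to the purinergic P2Y receptors.

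Values are log2 expression values as deposited, and the median of an array lay between 4.84 and 4.94. No probe-wise detection call was used, so a gene near the array median is described as dim, and background makes a change of a dim gene read smaller. All 8 measured macrophage markers of 10 listed, among them Csf1r, Adgre1 and Cd68, lay above the array median on every array. Of 12 measured lymphocyte markers, 9 lay below it on every array and 1, Cd79b, above it on every array. The summed level of those 12 markers was 47.1 to 48.6 on the hepcidin arrays and 46.5 to 48.6 on the PBS arrays at 1 h. At 3 h it was 47.6 to 49.1 with hepcidin and 47.3 to 48.4 with PBS. No lymphocyte marker passed in any comparison of the groups. Of the 8 macrophage markers, 2 rose (Cd14 and Spi1) and 1 fell (Mertk) at 3 h, and at 1 h 0 passed in limma. Their summed level at 3 h was 86.4 to 87.6 with hepcidin and 86.6 to 87.6 with PBS, and their part in the results below was not tested. Of the markers of other cells, those below the array median on every array were 7 of 10 for neutrophils and their precursors, 6 of 8 for endothelial cells, 4 of 8 for fibroblasts and 5 of 8 for dendritic cells. Those above it on every array were Elane for neutrophils, Kdr and Egfl7 for endothelial cells, Col1a1 and Col1a2 for fibroblasts and Bst2 for dendritic cells. Of these 4 lists, 0 genes passed in limma between hepcidin and PBS at either time, and Kdr and Mpo were lower at 3 h than at 1 h within hepcidin. In RNA from a whole culture, fewer cells of a type and less RNA per cell cannot be told apart.

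The threshold for a gene to pass was an adjusted p under 0.05 in limma, a linear model across all 24675 genes with Benjamini-Hochberg adjustment. At 1 h, 1 of 7 members passed, Cd69, in a comparison in which 0.559% of all genes passed. At 3 h, 5 of 7 passed, against 5.33% of all genes. Cd69, Lpar1 and Lpar4 were higher with hepcidin, a direction in which 2.8% of all genes passed. S1pr1 and Lpar6 were lower, a direction in which 2.53% passed. S1pr2 and Sphk1 did not pass at either time. The median log2 difference over the 7 members was -0.08 at 1 h and 0.00 at 3 h, and over all genes it was 0.00 and 0.02.

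**Figure D1:**
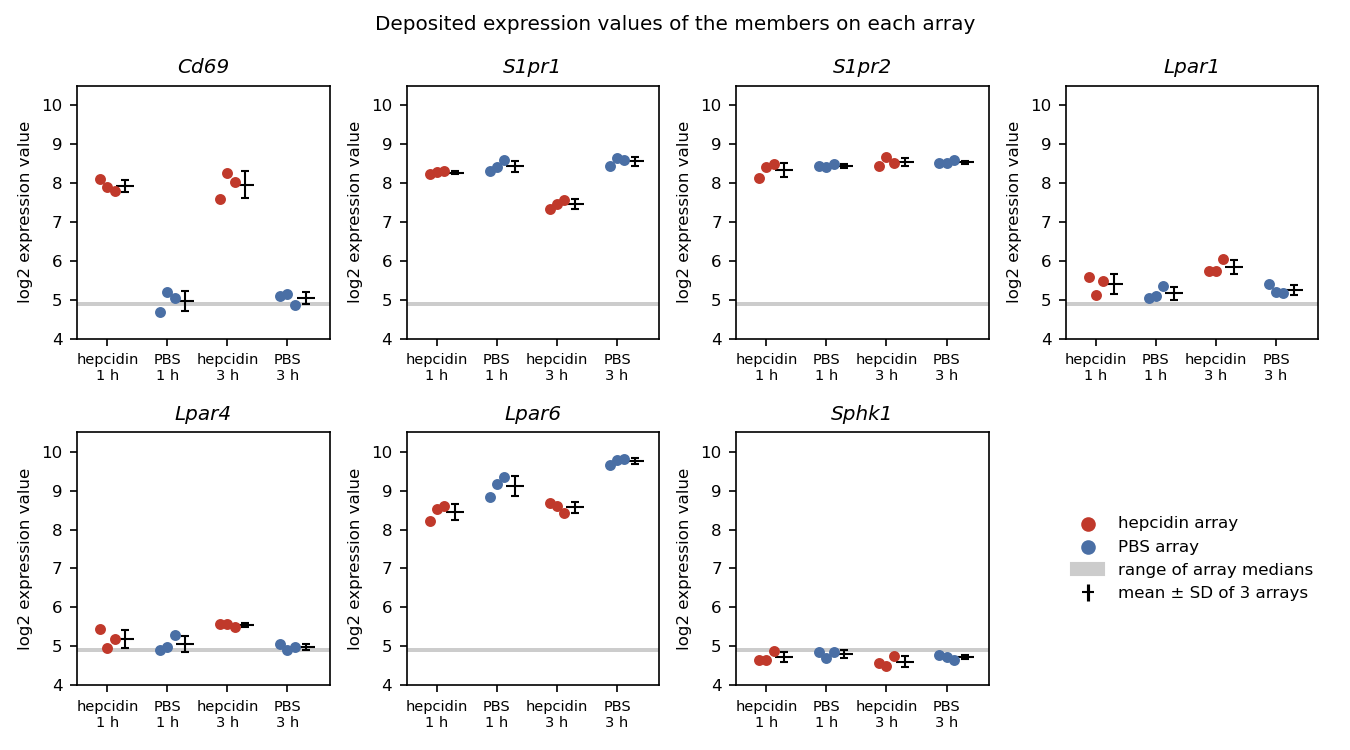
Log2 expression values of the 7 members on each of the 12 arrays (points), with the mean and SD of 3 arrays beside them and the range of the array medians, 4.84 to 4.94, as a grey band. The Cd69 values with hepcidin, 7.58 to 8.27, lie above all PBS values, and the S1pr1 values with hepcidin at 3 h, 7.34 to 7.57, lie below those of the other groups.

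Cd69 (Entrez gene 12515) was near the array median with PBS and well above it with hepcidin at both times. At 1 h it stood at 8.10, 7.90 and 7.79 on the log2 scale on the hepcidin arrays, against 4.68, 5.19 and 5.05 on the PBS arrays. At 3 h it stood at 7.58, 8.27 and 8.02 on the hepcidin arrays, against 5.10, 5.14 and 4.87 on the PBS arrays. Every hepcidin array lay more than 2 log2 units above every PBS array. The log2 difference was 2.96 (SE 0.17, limma adjusted p = 1.27e-06, n = 3 arrays in each group) at 1 h and 2.92 (SE 0.17, limma adjusted p = 5.97e-07) at 3 h. No fold is given, because the PBS values were dim and the log2 differences may read too small.

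No difference between the times was detected in the response of Cd69. The effect at 3 h minus the effect at 1 h was -0.03 on the log2 scale (95% interval -0.56 to 0.49). The hepcidin arrays averaged 7.96 ± 0.35 at 3 h and 7.93 ± 0.16 at 1 h (SD, n = 3 each), and the values of the 2 times overlapped. With PBS the means were 5.04 ± 0.15 at 3 h and 4.97 ± 0.26 at 1 h, and these also overlapped. The order of the 4 groups was thus both hepcidin groups above both PBS groups, with no separation by time within either pair.

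The S1P receptor gene S1pr1 (Entrez gene 13609) followed another course, with a small difference at 1 h and a clear fall at 3 h. At 1 h its log2 values were 8.23, 8.29 and 8.30 on the hepcidin arrays and 8.31, 8.41 and 8.59 on the PBS arrays. The groups did not overlap, by a margin of about the last printed digit, and the log2 difference of -0.16 did not pass (95% interval -0.35 to 0.04, limma adjusted p = 0.824). At 3 h the values were 7.34, 7.47 and 7.57 with hepcidin, against 8.43, 8.64 and 8.60 with PBS. All hepcidin arrays lay below all PBS arrays, and the fall was 2.14-fold (log2 difference -1.10, SE 0.09, limma adjusted p = 1.00e-05).

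The effect of hepcidin on S1pr1 differed between the times, at -0.94 on the log2 scale for the effect at 3 h minus the effect at 1 h (SE 0.13, limma adjusted p = 0.00448). S1pr1 was the 1 of 7 members that passed in this test of the difference, which 1.03% of all genes passed. Within hepcidin, S1pr1 was 1.75-fold lower at 3 h than at 1 h (log2 difference -0.81, SE 0.09, limma adjusted p = 1.94e-04), again the 1 member that passed, where 5.05% of all genes passed. Within PBS it changed by 0.13 from 1 h to 3 h (95% interval -0.07 to 0.32, limma adjusted p = 0.725). Kdr, an endothelial marker gene, also passed lower by time, by -1.19 within hepcidin and by -0.77 within PBS, and the part of endothelial cells in the result for S1pr1, which those cells also express, was not tested. The summed level of the 8 endothelial markers was 33.2 to 33.9 with hepcidin at 3 h, 33.4 to 35.2 with hepcidin at 1 h, 33.5 to 34.6 with PBS at 3 h and 34.2 to 34.7 with PBS at 1 h. These comparisons share arrays with the comparisons of hepcidin with PBS and are not independent of them. At 1 h Cd69 had passed and S1pr1 had not.

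The second S1P receptor gene, S1pr2 (Entrez gene 14739), which couples to several classes of G protein, lay well above the array median in all groups and did not pass in any comparison. Its log2 values were 8.12, 8.41 and 8.48 with hepcidin and 8.43, 8.42 and 8.48 with PBS at 1 h. At 3 h they were 8.45, 8.66 and 8.52 with hepcidin and 8.52, 8.53 and 8.59 with PBS. The groups overlapped at both times. The 95% interval of the log2 difference was -0.31 to 0.09 at 1 h and -0.20 to 0.20 at 3 h, so a fall of the size of that of S1pr1 at 3 h lay outside it.

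Sphk1 (Entrez gene 20698), the kinase gene, was dim on every array. It stood at 4.64, 4.64 and 4.88 with hepcidin and 4.86, 4.69 and 4.86 with PBS at 1 h, and at 4.57, 4.48 and 4.75 with hepcidin and 4.77, 4.73 and 4.65 with PBS at 3 h. The groups overlapped, and the log2 differences were -0.08 (95% interval -0.29 to 0.12) and -0.12 (-0.32 to 0.09). At this signal a change of the transcript may not be measurable.

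**Figure D2:**
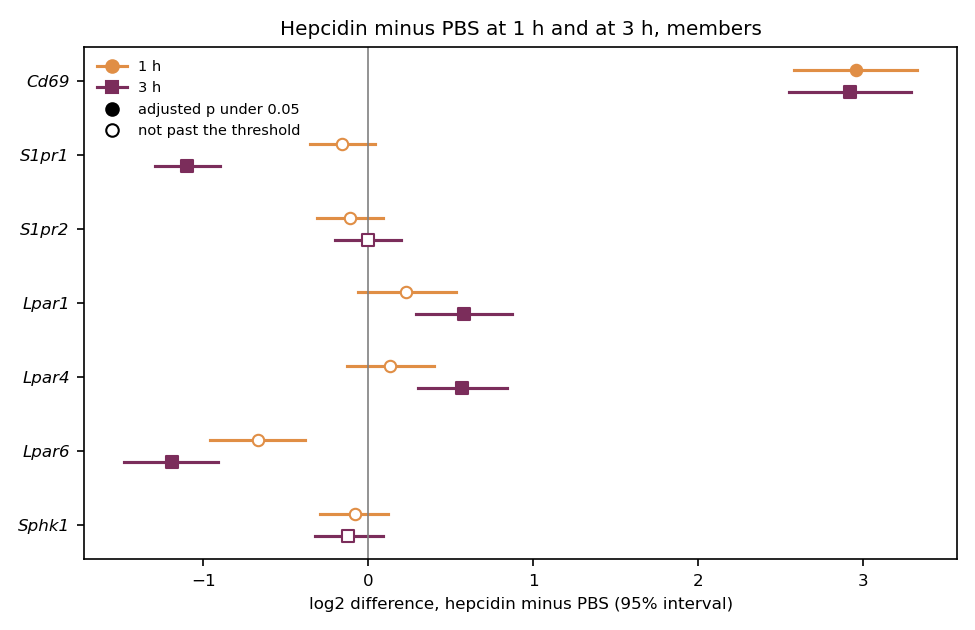
Log2 difference, hepcidin minus PBS, with its 95% interval for each of the 7 members at 1 h (circles) and at 3 h (squares). Filled symbols mark an adjusted p under 0.05, which Cd69 reached at both times and S1pr1, Lpar1, Lpar4 and Lpar6 at 3 h.

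The 3 LPA receptor genes are given with a promoter window each, 250 bases before to 50 after an annotated start, since Lpar1 and Lpar4 rose and Lpar6 fell at 3 h. The windows are those of RefSeq on GRCm38.p6, in which 5 of the 7 members had an entry and Cd69 and S1pr1 had none. Lpar1 has 3 windows there, and the one shown is the one with a match. Capitals mark a match to the letters GGGA, any 4 bases and CC, a form of the NF-kB motif, on either strand.
Lpar1, chr4:58499354-58499653, minus strand: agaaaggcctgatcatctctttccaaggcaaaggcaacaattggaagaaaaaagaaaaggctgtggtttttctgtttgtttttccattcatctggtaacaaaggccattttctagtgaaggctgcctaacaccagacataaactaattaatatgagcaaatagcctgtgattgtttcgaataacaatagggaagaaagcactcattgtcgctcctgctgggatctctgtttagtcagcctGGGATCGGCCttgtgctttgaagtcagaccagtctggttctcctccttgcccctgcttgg
Lpar4, chrX:106920375-106920674, plus strand: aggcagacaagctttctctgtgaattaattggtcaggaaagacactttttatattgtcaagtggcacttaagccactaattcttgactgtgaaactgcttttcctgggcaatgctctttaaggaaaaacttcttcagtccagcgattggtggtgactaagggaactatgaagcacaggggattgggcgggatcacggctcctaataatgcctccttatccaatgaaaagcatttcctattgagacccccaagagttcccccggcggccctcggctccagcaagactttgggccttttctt
Lpar6, chr14:73237641-73237940, plus strand: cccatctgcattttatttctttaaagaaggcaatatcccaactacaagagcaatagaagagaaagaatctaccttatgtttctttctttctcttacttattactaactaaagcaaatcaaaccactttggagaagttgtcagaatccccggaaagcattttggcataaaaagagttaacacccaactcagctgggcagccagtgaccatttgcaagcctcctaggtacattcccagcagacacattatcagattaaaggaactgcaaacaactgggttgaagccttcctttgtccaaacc
The match in Lpar1 starts 10 bases before the annotated start. The Lpar4 and Lpar6 windows and the other 2 Lpar1 windows hold none, and 20.7% of all 32851 windows hold at least 1. That share is for single windows, and a gene with several windows, such as Lpar1, has more room for a match. The AP-1 motif TGANTCA, the FOXO motif GTAAACA and the KLF motif CCACACCC, searched on both strands, had no match in any Lpar1, Lpar4 or Lpar6 window and stand in 7.81%, 3.65% and 3.56% of all windows. Of the members that did not pass, S1pr2 has a KLF match in its window and Sphk1 an AP-1 match in 2 overlapping windows. A match is a run of letters and no evidence of binding.

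Lpar6 (Entrez gene 67168) was lower with hepcidin at 3 h. It stood at 8.69, 8.60 and 8.42 on the log2 scale with hepcidin, against 9.67, 9.80 and 9.82 with PBS. All hepcidin arrays lay below all PBS arrays, and the fall was 2.29-fold (log2 difference -1.19, SE 0.13, limma adjusted p = 1.23e-04). At 1 h the values were 8.22, 8.53 and 8.61 with hepcidin, against 8.85, 9.17 and 9.35 with PBS. The groups did not overlap there either, but the log2 difference of -0.67 (SE 0.13) missed the threshold in limma at an adjusted p = 0.0501. Over 21 alternative settings this adjusted p ran from 0.0143 to 0.233, and in 6 of them it passed.

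The PBS arrays of Lpar6 did not overlap between the times. With PBS, Lpar6 averaged 9.76 ± 0.08 at 3 h and 9.12 ± 0.25 at 1 h (SD, n = 3 each), a log2 difference of 0.64 (SE 0.13) that did not pass (limma adjusted p = 0.0657, unadjusted p = 3.96e-04). With hepcidin it averaged 8.57 ± 0.14 at 3 h and 8.46 ± 0.21 at 1 h, a log2 difference of 0.11 (95% interval -0.17 to 0.40). The difference between hepcidin and PBS at 3 h thus stands beside a change in the PBS arrays, and hepcidin values overlapped between the times. The effect at 3 h minus that at 1 h was -0.53 (SE 0.19, limma adjusted p = 0.323). In the comparison of the PBS groups 0 of 7 members passed in limma, against 0.45% of all genes, and 1 member, Lpar6, had an unadjusted p under 0.05, as 10.6% of all genes did. Groups that did not overlap were found there for S1pr2 and Lpar6, against 17.7% of all genes. Between the hepcidin groups they were found for S1pr1, Lpar1 and Lpar4, against 20.1%.

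Lpar1 (Entrez gene 14745) was dim and rose at 3 h. Its log2 values were 5.73, 5.74 and 6.04 with hepcidin at 3 h, against 5.40, 5.20 and 5.16 with PBS. The groups did not overlap, and the log2 difference was 0.58 (SE 0.14, limma adjusted p = 0.0258). At 1 h the values were 5.59, 5.11 and 5.49 with hepcidin and 5.04, 5.09 and 5.36 with PBS, which overlapped, with a log2 difference of 0.23 (95% interval -0.06 to 0.53).

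Lpar4 (Entrez gene 78134) had a like course. Its log2 values at 3 h were 5.58, 5.56 and 5.49 with hepcidin, against 5.06, 4.89 and 4.99 with PBS. The groups did not overlap, and the log2 difference was 0.57 (SE 0.12, limma adjusted p = 0.0163). At 1 h the values were 5.43, 4.95 and 5.18 with hepcidin and 4.89, 4.98 and 5.29 with PBS, which overlapped, with a log2 difference of 0.13 (95% interval -0.13 to 0.40).

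The calls of Lpar1 and Lpar4 at 3 h are less firm than those of Cd69, S1pr1 and Lpar6. Without PBS 3 h replicate 2 the adjusted p was 0.0935 for Lpar1 and 0.0743 for Lpar4, and without PBS 3 h replicate 3 it was 0.107 and 0.0562. Lpar1 also lost its call without hepcidin 3 h replicate 3 (0.111), and Lpar4 without hepcidin 3 h replicate 1 (0.0503) or replicate 2 (0.0502). Cd69, S1pr1 and Lpar6 passed at 3 h whichever of the 12 arrays was left out. Groups that did not overlap at 3 h were found for 5 of 7 members, an order that 21.7% of all genes had. At 1 h they were found for 3 of 7, Cd69, S1pr1 and Lpar6, against 12.3% of all genes.

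The wider pathway was read from lists of 65 other genes, of which 62 were measured. At 1 h 2 of the 62 passed, both higher, or 3.23% against 0.559% of all genes. At 3 h 8 rose and 8 fell, or 25.8% against 5.33% of all genes. These lists were drawn up with earlier results known, and the shares describe them only. The median log2 difference of the 62 genes was 0.02 at 1 h and -0.02 at 3 h.

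Among the 5 other S1P and LPA receptor genes, S1pr3, S1pr4, S1pr5, Lpar2 and Lpar3, 0 passed in limma at 1 h and 1 rose at 3 h. S1pr3 stood at 3.75, 3.79 and 3.84 with hepcidin and 3.50, 3.57 and 3.56 with PBS at 3 h, far below the array median. Its log2 difference of 0.25 (SE 0.07, limma adjusted p = 0.0438) kept its call without 1 of the 12 arrays and lost it without any of the other 11. The 5 differences ran from -0.13 to 0.08 at 1 h and from -0.15 to 0.25 at 3 h.

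Of 20 genes of S1P synthesis, breakdown and transport, 0 passed in limma at 1 h, and 1 rose and 4 fell at 3 h. Cers6, a ceramide synthase gene, stood at 10.77, 10.75 and 10.78 with hepcidin and 10.10, 10.12 and 10.14 with PBS at 3 h, and rose by 0.65 on the log2 scale (SE 0.06, limma adjusted p = 2.17e-05). The 4 genes that fell, Acer3, Sgpp1, Asah1 and Sgpl1, are genes of S1P or ceramide breakdown. Other breakdown genes in the list did not pass at 3 h, with log2 differences of 0.13 for Sgpp2, 0.06 for Acer2, -0.02 for Acer1 and -0.07 for Asah2. Acer3, an alkaline ceramidase gene, fell by 0.62 (limma adjusted p = 1.50e-04), and the S1P phosphatase gene Sgpp1 fell by 0.46 (adjusted p = 0.0026). The difference of Acer3 stands beside a change in the PBS arrays, 0.23 higher at 3 h than at 1 h (limma adjusted p = 0.22, groups apart). Within hepcidin Acer3 differed by -0.16 between the times (limma adjusted p = 0.266), and against PBS at 1 h by -0.23 (adjusted p = 0.411), with groups apart in both. The acid ceramidase gene Asah1 fell by 0.35 (limma adjusted p = 0.0199) and the S1P lyase gene Sgpl1 by 0.30 (adjusted p = 0.0453), and Sgpl1 kept its call without 1 of the 12 arrays and Asah1 without 9. The median over the 20 genes was 0.02 at 1 h and -0.03 at 3 h, and the other sphingosine kinase gene, Sphk2, changed by 0.09 and 0.11 and did not pass. Sptlc2, a subunit of serine palmitoyltransferase, did not pass against PBS and was lower by time within hepcidin (log2 difference -0.38, limma adjusted p = 0.00497).

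Of 10 measured genes of LPA synthesis and breakdown, 0 passed in limma at 1 h and 2 rose at 3 h. They were Plpp3 and Plpp1, lipid phosphate phosphatase genes, whereas Plpp2 (-0.04, limma adjusted p = 0.856) and Plpp6 (-0.02, adjusted p = 0.95) of the same list did not pass. Plpp3 stood at 7.92, 8.16 and 8.24 with hepcidin and 6.80, 7.25 and 7.29 with PBS at 3 h, a 1.99-fold rise (log2 difference 0.99, SE 0.15, limma adjusted p = 0.00129). Plpp1 rose by 0.81 on the log2 scale (SE 0.14, limma adjusted p = 0.00405), with 5.92, 6.22 and 5.77 with hepcidin against 5.44, 4.98 and 5.07 with PBS. Both groups were apart for each of the 2 genes. Pla2g4a, the cytosolic phospholipase A2 gene, did not pass against PBS and was higher at 3 h than at 1 h within hepcidin (0.46, limma adjusted p = 0.0103), a call lost without hepcidin 1 h replicate 3 (0.0504).

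Of 19 measured genes of G proteins and receptor regulation, 0 passed in limma at 1 h, and 2 rose and 3 fell at 3 h. Rgs2 and Rgs1, which speed the switching off of G proteins, fell by 1.39 (SE 0.12, limma adjusted p = 1.65e-05) and by 1.15 (SE 0.21, adjusted p = 0.00584). Rgs16, of the same family, rose by 0.73 (SE 0.11, limma adjusted p = 0.00128), and Arrb2, a beta-arrestin gene, by 0.36 (adjusted p = 0.0121). At 1 h Rgs2 differed by -0.51 (limma adjusted p = 0.138) and Rgs16 by 0.41 (adjusted p = 0.229). Their groups did not overlap there, as for 12.3% of all genes, whereas those of Rgs1 did (-0.12, limma adjusted p = 0.97). Gna13, which encodes a G protein alpha subunit, fell by 0.33 at 3 h (limma adjusted p = 0.0104, or 0.0557 without PBS 3 h replicate 3) and changed by 0.17 at 1 h (adjusted p = 0.655). Gna12, its close relative, passed only within hepcidin by time (-0.34, limma adjusted p = 0.0259). That call was lost without any 1 of the 3 hepcidin 1 h arrays, hepcidin 3 h replicate 1 or hepcidin 3 h replicate 3, with an adjusted p of up to 0.104.

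Of 8 measured factors known to act on S1pr1 or Cd69 transcription, 2 rose at 1 h, and 2 rose and 1 fell at 3 h. Klf2, which drives S1pr1 in T cells, fell by 0.74 at 3 h (SE 0.15, limma adjusted p = 0.00978) and changed by 0.02 at 1 h (adjusted p = 0.996). Its log2 values at 3 h were 6.21, 6.30 and 5.63 with hepcidin and 6.92, 6.78 and 6.67 with PBS, which did not overlap. This difference stands beside a change in the PBS arrays, where Klf2 was 0.49 higher at 3 h than at 1 h (limma adjusted p = 0.213, groups apart). Within hepcidin the log2 difference of Klf2 was -0.28 (limma adjusted p = 0.387), and the times overlapped. Foxo1, another regulator of S1pr1 in T cells, changed by -0.01 and -0.04 and did not pass. The AP-1 genes Junb and Fos rose by 1.09 (limma adjusted p = 2.51e-05) and 0.88 (adjusted p = 0.0129) at 1 h. At 3 h Junb rose by 0.43 (limma adjusted p = 0.0139) and Fos changed by 0.31 (adjusted p = 0.294), while Rela, an NF-kB subunit gene, rose by 0.37 (adjusted p = 0.00143). With PBS, Fos was higher at 3 h than at 1 h (0.89, limma adjusted p = 0.0234), and with hepcidin Jun was lower at 3 h (-0.71, adjusted p = 0.0145). Fos lost its call between the PBS groups without PBS 1 h replicate 1 or 2 or PBS 3 h replicate 2 or 3 (limma adjusted p up to 0.12), and at 1 h without hepcidin 1 h replicate 2 or 3 (up to 0.0839). Junb lost its call at 3 h without PBS 3 h replicate 2 or 3 or hepcidin 3 h replicate 3 (up to 0.0626), and Jun without hepcidin 1 h replicate 3 or hepcidin 3 h replicate 1 (up to 0.067).

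**Figure D3:**
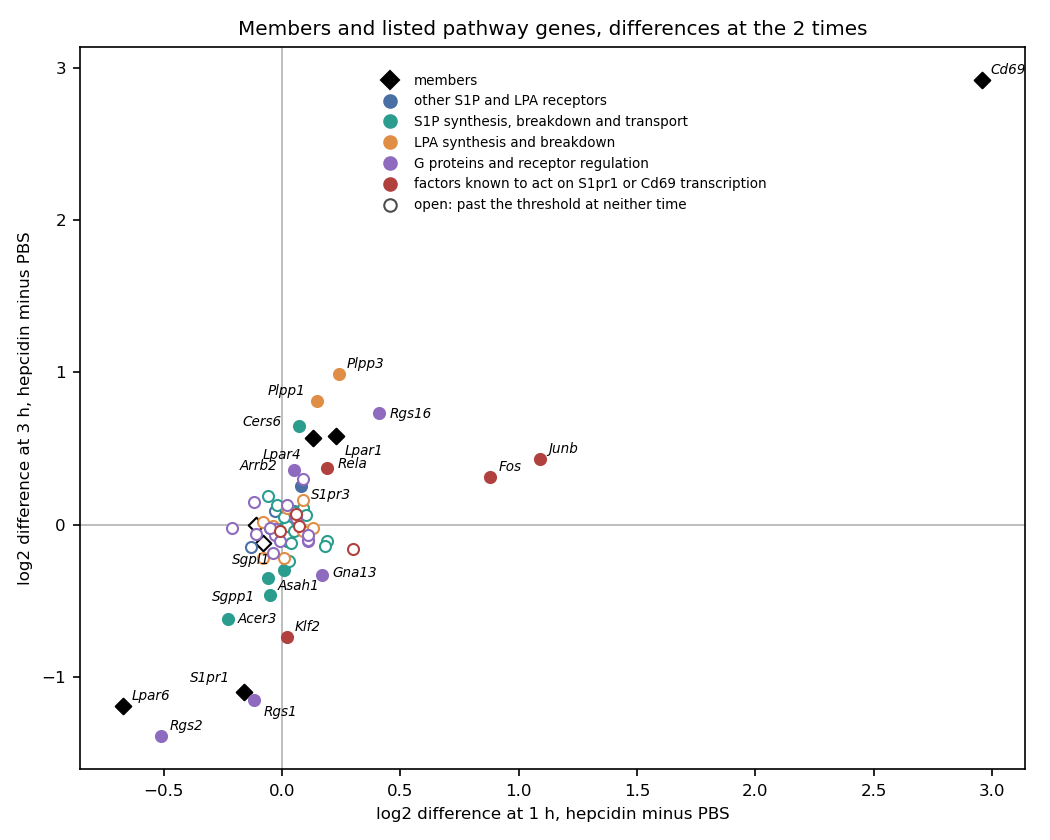
Log2 differences, hepcidin minus PBS, at 1 h (x axis) and 3 h (y axis) of the 7 members (diamonds) and 62 listed pathway genes (circles, coloured by list); filled and named symbols passed at 1 or both times. Cd69 lies apart at 2.96 and 2.92, and S1pr1, Lpar6, Rgs1 and Rgs2 lie lowest at 3 h, between -1.39 and -1.10.

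The genes with the most alike course were found by the root mean square difference between profiles over the 12 arrays, each centred on its own mean. Predicted gene models, numbered clones, LOC genes and microRNA genes were left out of this ranking. For Cd69 they were Tnf at 0.286 log2 units, Tnfaip3 at 0.41, Nfkbie at 0.464, Nfkbia at 0.47 and Nfkbiz at 0.471, against an SD of 1.55 for Cd69 itself over the arrays. Tnf encodes the inflammatory cytokine, and the others encode inhibitors or regulators of NF-kB. Tnf differed by 3.60 at 1 h and 2.67 at 3 h and Nfkbiz by 3.08 and 1.63 beside 2.96 and 2.92 for Cd69.

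S1pr1 was most like Rab3il1 (0.117), Rasgrp3 (0.13) and Rasa3 (0.13). Rasgrp3, an activator of Ras and Rap proteins, and Rasa3, a GTPase-activating protein for them, differed by -1.05 and -0.84 at 3 h and by -0.14 and 0.03 at 1 h. Lpar1 was most like the transcription factor genes Batf (0.121) and Etv6 (0.126) and like Lpar4 (0.127). Lpar4 was most like Ly75 (0.078), an endocytic lectin receptor gene, Etv6 (0.105) and Hivep1 (0.11). Lpar6 was most like Arrdc3 (0.235), an arrestin-domain gene, Nlrp1c-ps (0.255) and Zfp931 (0.279), and Arrdc3 differed by -0.58 at 1 h and -1.15 at 3 h. These distances stand against an SD over the arrays of 0.46 for S1pr1, 0.31 for Lpar1, 0.27 for Lpar4 and 0.56 for Lpar6. A smaller distance than that of Cd69 and Tnf is thus not a closer match by itself. All genes were read from the same arrays and share their errors, and these distances are descriptions.

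**Figure D4:**
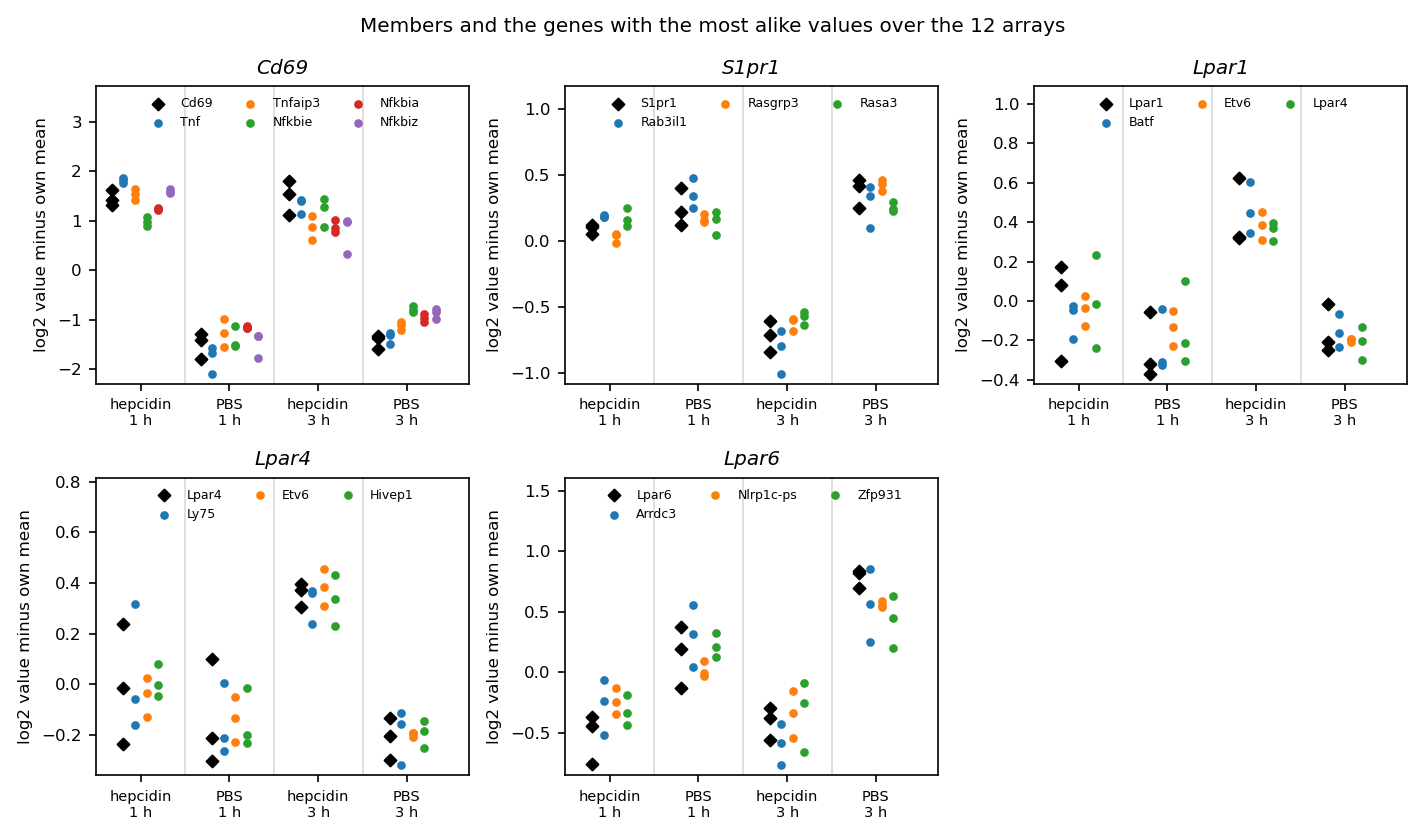
Log2 values minus each gene's own mean over the 12 arrays for the 5 members past the threshold at 3 h (black diamonds) and the genes most like them (coloured circles), by group, with 1 point per array. The Cd69 points at 3 h lie in the same range as at 1 h, whereas the Nfkbiz points with hepcidin lie lower at 3 h.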

How the data were processed

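Total RNA of 12 macrophage samples was read on Affymetrix arrays that cover whole transcripts (labels' protocols). The deposited table holds 25429 probe sets. RMA and Partek stand without versions in the submitters' processing notes. The authors' deposited values were read as log2, since their range is that of RMA output, although no label writes the log base. The probe table named 24675 probe sets, all tested without a filter, and 754 were left unnamed. Group means were compared by lmFit, contrasts.fit and eBayes (limma 3.58.1, R 4.3.3; 8 residual and 4.11 prior degrees of freedom) in 5 comparisons, each adjusted by Benjamini-Hochberg over all genes, with errors as moderated standard errors. Simulated data had 200 of 24675 genes changed in 1 hepcidin group, with independent normal errors and, for each gene, the same spread in all groups. The test found 83.6% of those changed by 0.7 (log2) when the 1 h group was changed and 89.6% when the 3 h group was. Of those changed by 0.35 it found 16.4% and 13.4%. The 2 runs share 1 design and differ by the random draw only, so they do not give the power at each time. Members, lists and the rule for naming genes (all members, every listed gene that passed, and the most alike genes) were chosen with earlier results of these data known. The settings tried were the prior, moderation, probe filter, normalization, probe sets, array weights, the replicate block, the groups fitted and leaving out each array. The 3 arrays a group limit the precision.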

Additional observations from a re-analysis of the deposited data

Results flagged for a closer look

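By limma's test of the effect at 3 h minus the effect at 1 h, the effect of hepcidin differed between the times for 5 genes. They were 1 of 7 members and 4 of 62 listed pathway genes (6.45%), in a comparison that 1.03% of all genes passed. Members and lists were chosen with earlier results known, so these shares describe them only. For S1pr1 this difference was -0.94 on the log2 scale (SE 0.13, adjusted p = 0.00448), and it passed whichever array was left out. For Cers6 it was 0.58 (SE 0.08, limma adjusted p = 0.00537), also whichever array was left out. For Gna13 it was -0.50 (SE 0.09, limma adjusted p = 0.0256), and the call held without 4 of the 12 arrays. For Junb it was -0.66 (SE 0.13, limma adjusted p = 0.0281), and the call held without 2 of the 12. For Rgs2 it was -0.88 (SE 0.17, limma adjusted p = 0.0297), and the call held without 3 of the 12.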

How the results depend on the processing

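Over 723 values of the 7 members under the alternatives, 683 kept their direction and their side of the threshold, 9 lost a call, 12 gained one and 19 changed sign. No value past the threshold changed sign. The number of members past it at 1 h was 2 in place of 1, with Lpar6 added, under a trended and robust prior, a filter to genes above the median mean, a second quantile normalization or array weights, and 1 to 2 when an array was left out. At 3 h it was 3 in place of 5 without moderation, where Lpar1 (adjusted p = 0.081) and Lpar4 (0.0554) were lost, and 3 to 5 when an array was left out. Between the PBS groups it was 1 in place of 0, Lpar6, under the trended and robust prior, genes above the median mean or array weights, and 0 to 1 when an array was left out. Within hepcidin it was 1 to 2, with Lpar4 added without hepcidin 1 h replicate 1. For the effect at 3 h minus that at 1 h it was 1 under all alternatives.

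Over all genes, the count at 3 h was 1316, or 805 with only the 2 groups compared, and 837 to 1287 when an array was left out. For the effect at 3 h minus that at 1 h it was 254, with 433 under the trended and robust prior, 412 for genes above the median mean, and 141 to 234 when an array was left out. Between the PBS groups it was 111, with 319 under that prior, 333 above the median mean, 64 with median centring, 285 with array weights, 7 with only the 2 groups, and 23 to 126 when an array was left out. Within hepcidin it was 1246, with 616 with only the 2 groups and 721 to 1178 when an array was left out. At 1 h it stayed within 1.5 times 138.

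The titles repeat replicate numbers 1 to 3, but no label says that same-numbered arrays share an animal or day, so the main fit did not take the numbers as pairs. Between hepcidin and PBS, same-numbered arrays correlated in their deviations from the group means by 0.06 to 0.134 at 1 h and 0.064 to 0.206 at 3 h. At both times each hepcidin array correlated best with the PBS array of its own number. Between the times this held for replicates 1 and 3 within PBS and within hepcidin, but not for replicate 2. The 3 h replicate 2 correlated by 0.037 with its own number and 0.069 with another within PBS, and by 0.003 and 0.082 within hepcidin. What the numbers stand for was not tested, and the main fit may leave out a pairing. With the replicate block 2 members passed at 1 h, 1 between the PBS groups, Lpar6 in both, and 240 genes between the PBS groups.

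The sign changes all concern values that did not pass, and the cause was not tested. When each array was left out, the log2 difference of S1pr2 at 3 h, -0.00112 with all arrays, ran from -0.0581 to 0.0455. The difference of effects ran from -0.19 to 0.16 for Cd69 and from -0.11 to 0.0473 for Sphk1. Between the PBS groups the difference ran from -0.0843 to 0.17 for Cd69 and from -0.16 to 0.0443 for Lpar4. Within hepcidin it ran from -0.13 to 0.22 for Cd69 and from -0.00399 to 0.19 for Lpar6. With array weights Cd69 stood at 0.044 for the difference of effects and -6.96e-04 between the PBS groups, and with median centring at -5.0e-04 within hepcidin.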

Other observations

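Gene neighbours of the members were read from the RefSeq gene table, as the nearest named protein-coding gene on each side and any that overlaps. Of 15 neighbours, 0 passed in limma at 1 h, where 0.559% of all genes passed. At 3 h 2 of the 15 fell, both at Lpar6, where 5.33% of all genes passed and 2.53% passed as lower. The cause of these 2 falls was not tested. Lpar6 overlaps Rb1, the retinoblastoma gene, which changed by -0.08 at 1 h and fell by 0.27 at 3 h (limma adjusted p = 0.0399). Rcbtb2, on one side, changed by -0.09 at 1 h and fell by 0.47 at 3 h (limma adjusted p = 0.00694). Itm2b, on the other side, changed by -0.12 at 3 h (limma adjusted p = 0.456). Whether a probe of one of the overlapping genes also reads the other was not tested. Clec2d, a C-type lectin-like gene next to Cd69, changed by 0.57 at 1 h and 0.39 at 3 h and did not pass (limma adjusted p = 0.127 and 0.128).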
